A study of Homo sapiens with 4 samples.

Results

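Among the entries of a human miRNA array, hsa-miR-1274a_v16.0, hsa-miR-1274b_v16.0, hsa-miR-720_v18.0 and hsa-miR-886-3p_v15.0 carry names of entries that have since been withdrawn from the miRNA registry because the RNAs are pieces of tRNAs or of a vault RNA. These 4 entries, of 939 on the array and 851 human ones, were chosen by name with their signals and their changes on these arrays already known. They alone are called the withdrawn entries below, although other names on the array also carry the version suffix of an old registry entry. The contrast between the groups is therefore described below for these entries and was not tested. All 4 were detected on every array and passed the signal minimum used here, an unscaled intensity of 50 on at least 1 array, as did 57 human entries in all.

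The arrays compared MG and non-MG cells, subpopulations of the colon cancer cell line HCT116 with wild-type p53, to find miRNAs that differ with migration. MG cells had passed through the membrane of a transwell and are labelled as high migratory, whereas non-MG cells had not and are labelled as low migratory and as the control. Each group had 2 arrays of total RNA, named MG 1, MG 2, non-MG 1 and non-MG 2. No other treatment or genotype separates the groups in the labels, and both are selected subpopulations of 1 line. The labels do not say that the replicates were separate cultures, so the spread between arrays may be technical.

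A mature tRNA carries the amino acid on its 3′ end, where the bases CCA are added after transcription, and cells hold tRNAs at high levels and cut a share of them into shorter fragments. miR-1274a and miR-1274b were read as pieces from the 3′ end of lysine tRNAs, and miR-720 as a piece of a threonine tRNA. Vault RNAs are short RNAs made by RNA polymerase III. miR-886-3p and miR-886-5p were read as the arms of a hairpin that is now annotated as vault RNA 2-1, an RNA known for binding the kinase PKR and for a promoter that is often methylated in cancers.

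The RefSeq annotation of GRCh38.p14 lists 27 lysine tRNA genes on 9 chromosomes, of which 13 have the anticodon TTT and 14 have CTT. It lists 20 threonine tRNA genes on 7 chromosomes. An array signal for such a fragment sums over gene copies and cannot be assigned to 1 of them. The vault RNA differs in this respect, since the older name hsa-mir-886 belongs to 1 gene, VTRNA2-1 on chromosome 5, which is 108 bases long and has TGFBI before it and SMAD5 after it among the protein-coding genes.

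Mature sequences of the 4 entries are not shown here. miR-1260a is shown because it was read as a tRNA piece too and passed the signal minimum, with its last 3 bases in capitals.
miR-1260a: aucccaccucugccaCCA
These are the letters CCA, with which 45 of 2370 human mature sequences in the RefSeq table (1.9%) end, and no tRNA sequence was compared with them. The 6 sequences below are those of the registered miRNAs whose profiles over the 4 arrays lay nearest to those of the withdrawn entries, with the seed (bases 2 to 8 from the 5′ end) in capitals. The first 3 are neighbours of the tRNA entries and the last 3 of miR-886-3p.
miR-24-3p: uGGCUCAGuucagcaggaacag
let-7i-5p: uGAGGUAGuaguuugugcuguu
miR-100-5p: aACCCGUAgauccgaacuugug
miR-17-5p: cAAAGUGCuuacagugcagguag
miR-92a-3p: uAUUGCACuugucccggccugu
miR-31-5p: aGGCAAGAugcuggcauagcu
No seed is shared among these 6.

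Each array held 15739 spots, of which 15024 carried miRNA probes, and 8.71% to 11.1% of the miRNA spots were well above background with 0 saturated. Between 118 and 135 entries were detected per array, 116 of them on all arrays. All arrays lay on 1 slide, and no row of the slide held both groups, so position on the slide and group cannot be told apart. The labelled epithelial origin was checked with 8 miRNAs: miR-141, miR-200a, miR-200b, miR-200c and miR-429 were detected on all arrays, and miR-192, miR-194 and miR-215, which mark the intestine, were not detected. Of 16 markers of stroma, blood, muscle, liver and neurons, 14 were not detected and 2 were seen on some arrays, miR-145 with summed signals of at most 9.25 and miR-9 of at most 6.96. The summed epithelial signal was 669 to 730 on the non-MG arrays and 631 to 651 on the MG arrays, and its part in the results below was not tested. In bulk RNA, fewer cells that hold an RNA and less of it per cell cannot be told apart.

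The signals below are intensities summed over the probes of an entry and scaled between arrays to a common 75th percentile. Levels of different entries depend on their probes and are not compared. Of the 4 entries, the 3 from tRNAs were higher on the MG arrays, miR-720 only narrowly, and miR-886-3p was lower. Higher signals in MG cells were not seen for every tRNA piece. miR-1308, miR-1260a and miR-1280, also read as tRNA pieces, had ratios of MG to non-MG cells of 0.829, 0.888 and 1.03. The groups of miR-1260a and miR-1280 overlapped, and those of miR-1308 did not. The values of miR-1274b, miR-1274a and miR-720 follow, then those of miR-886-3p.

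miR-1274b, from lysine tRNA, was at 127 on non-MG 1, 124 on non-MG 2, 196 on MG 1 and 159 on MG 2. The groups were apart, the MG arrays being higher by 1.25 times at the nearest pair, and the MG arrays differed from each other by almost as much, 1.23 times. The means were 177 ± 26.3 in MG cells and 125 ± 2.08 in non-MG cells (SD, n = 2), a ratio of geometric means of 1.41. On the log2 scale the difference was 0.49 with a standard error of 0.15. That error comes from the limma fit over the 57 human entries, which gave every entry the same pooled residual SD.

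miR-1274a, the other lysine tRNA entry, was at 67.7 and 65.1 on non-MG 1 and non-MG 2, and at 99.2 and 81.7 on MG 1 and MG 2. The groups did not overlap, and here too MG 1 was the highest array and the non-MG arrays were close together. The means were 90.4 ± 12.3 and 66.4 ± 1.81 (SD, n = 2), 1.36 times higher in MG cells or 0.44 ± 0.15 on the log2 scale (difference ± SE). The nearest MG and non-MG arrays differed 1.21 times, as did the MG arrays between themselves.

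miR-720, the threonine tRNA entry, was at 1553 on non-MG 1, 1431 on non-MG 2, 1987 on MG 1 and 1562 on MG 2. MG 2 lay only 1.01 times above non-MG 1, whereas the MG arrays differed 1.27 times from each other. The group means were 1775 ± 301 in MG cells and 1492 ± 86.2 in non-MG cells (SD, n = 2). Their ratio of 1.18, 0.24 ± 0.15 on the log2 scale (difference ± SE), rests on MG 1, without which it was 1.05. Its groups overlapped before scaling, with 1534 on MG 2 under 1638 on non-MG 1, and also under scaling to the median of the arrays.

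miR-886-3p, from the vault RNA, was at 67.6 on non-MG 1, 84.5 on non-MG 2, 53.5 on MG 1 and 50.8 on MG 2. Its direction was the opposite of that of the 3 tRNA entries above, with both MG arrays below both non-MG arrays, by 1.26 times at the nearest pair. The MG arrays differed 1.05 times and the non-MG arrays 1.25 times, so here the spread lay in the non-MG group. The means were 52.2 ± 1.91 in MG cells and 76.1 ± 11.9 in non-MG cells (SD, n = 2), a ratio of 0.690 or -0.54 ± 0.15 on the log2 scale (difference ± SE). Before scaling, MG 2 was at 49.9, just under the signal minimum that the other 3 arrays passed.

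**Figure D1:**
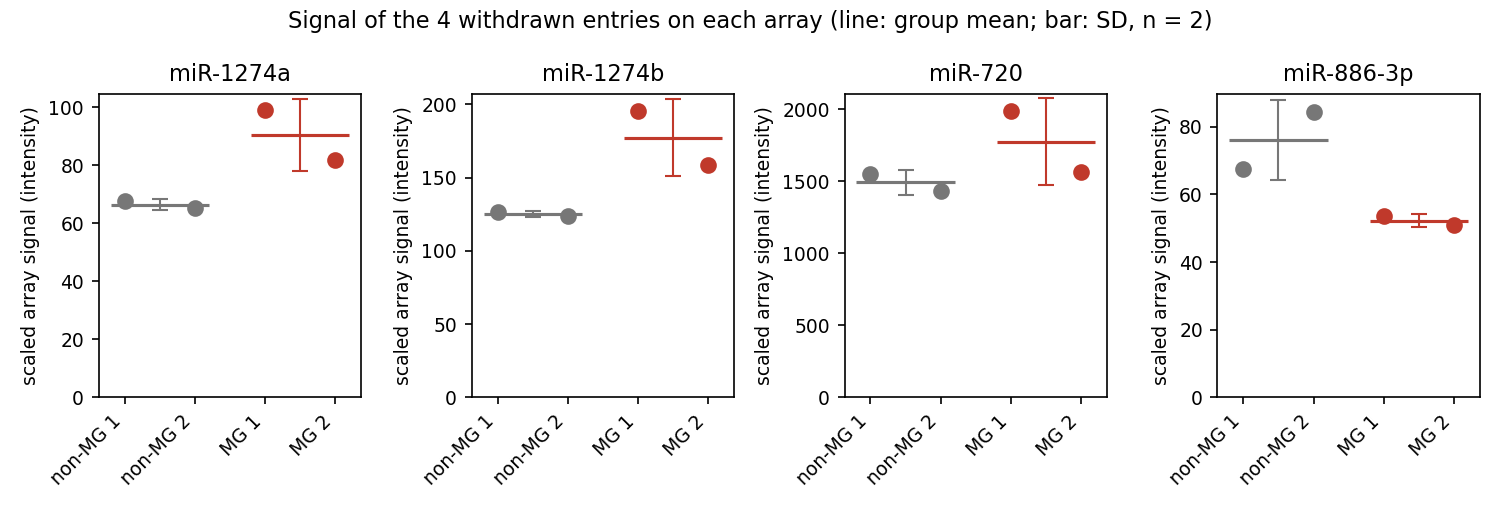
Scaled array signal (intensity, axis from 0) of miR-1274a, miR-1274b, miR-720 and miR-886-3p on the 2 non-MG arrays (grey) and the 2 MG arrays (red). Points are arrays, horizontal lines group means and bars the SD; the groups separate in each panel, but for miR-720 MG 2 (1562) lies next to non-MG 1 (1553), and these overlap before scaling.

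Of the 57 human entries, 12 (21.1%) were higher in MG cells and 23 (40.4%) lower with no overlap of the groups, which leaves 22 with overlap. Among the withdrawn entries 3 (miR-720 only under this scaling and quantile normalization) were higher and 1 was lower without overlap, a count that their choice with these values in view allows nothing to be read from. The criterion of a 1.5-fold mean change, which the study also used on values whose scaling is not given in the sources used here, was met by 4 of the 57 (7.02%), 5.26% of the 57 being higher and 1.75% lower in MG cells, and by 0 of the withdrawn entries under the scaling used here. The 4 were miR-10a-5p, miR-23b-3p and miR-27b-3p, which were higher, and miR-20b-5p, which was lower, all named after their values were seen. With a minimum of 50 on at least 2 arrays, miR-20b-5p dropped out and 3 of 56 entries passed, all 3 higher in MG cells. Either minimum can be met by 1 group alone. miR-10a-5p met both through the MG arrays, with unscaled signals of 69.6 and 70.9 there against 35.2 and 36.1 on the non-MG arrays. Whether miR-1274b is past 1.5-fold depends on the scaling, since its ratio was 1.41 here and 1.54 with quantile normalization, and these 4 need not be the study's list. limma called 14 of the 57 (24.6%) at an adjusted p under 0.05. In the order of changes miR-1274b stood at place 4, miR-1274a at place 5 and miR-720 at place 8 from the highest, and miR-886-3p at place 2 from the lowest. The median log2 change of all 57 was -0.08.

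**Figure D2:**
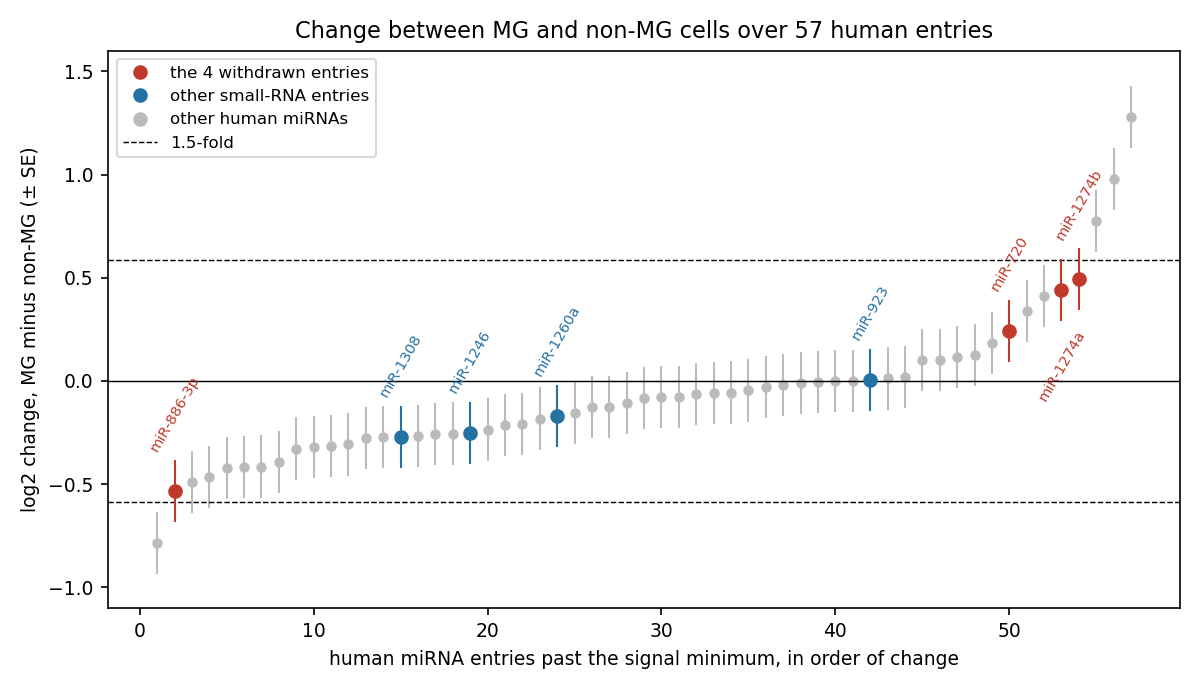
Log2 change between MG and non-MG cells (vertical axis, bars ± SE of the limma fit) of the 57 human entries past the signal minimum, in order of change (horizontal axis). The 4 withdrawn entries are red and 4 other small-RNA entries blue; no red point lies outside the dashed lines at 1.5-fold, with miR-1274b at 0.49 and miR-886-3p at -0.54.

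Each of the 4 entries had 16 spots per array, spread over 2 probes for the tRNA entries and 3 for miR-886-3p, and the probes of an entry share its target and are no replicates. Over the 4 arrays, 61 of 64 spots of miR-1274a were well above background, all 64 of miR-1274b and of miR-720, and 41 of miR-886-3p. Of the 23 miR-886-3p spots that were not, 22 belonged to its dimmest probe, and all 20 of its brightest probe were well above background. The 2 probes of miR-1274b changed between the groups by similar ratios, 1.43 and 1.40. From non-MG 1 to non-MG 2 they shifted in opposite directions, from 42.5 to 47.1 and from 84.2 to 76.7. The small non-MG spread of their sum was thus not that of either probe. For miR-1274a the brighter probe was at 67.7 ± 8.62 in MG and 52.2 ± 1.26 in non-MG cells (SD, n = 2), a ratio of 1.29. The dimmer one was at 22.7 ± 3.70 and 14.2 ± 3.07, a ratio of 1.61, and on both probes the groups did not overlap.

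The probes of miR-720 did not give the same picture. On the brighter one the MG mean was 1450 ± 260 and the non-MG mean 1182 ± 101 (SD, n = 2), 1.22 times apart. Its groups were only narrowly apart after scaling, with MG 2 at 1266 and non-MG 1 at 1253. Before scaling they overlapped, with 1243 on MG 2 under 1322 on non-MG 1. On the dimmer one the means were 325 ± 40.6 and 310 ± 14.6, a ratio of 1.05, and MG 2 was the lowest of the 4 arrays at 297. The narrow separation of the groups in the summed signal of miR-720 was thus that of its brighter probe. From non-MG 1 to non-MG 2 the probes shifted in opposite directions, the dimmer from 300 to 320 and the brighter from 1253 to 1111.

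The brightest of the miR-886-3p probes was at 38.4 ± 0.979 in MG cells and 53.2 ± 7.91 in non-MG cells (SD, n = 2), a ratio of 0.725 without overlap. Its middle probe was at 12.2 ± 1.30 and 19.2 ± 2.68, a ratio of 0.638, again without overlap. The dimmest probe overlapped between the groups, with a ratio of 0.821 and signals near its limit of detection, which is 3 times the probe's error. On MG 2 its unscaled signal of 2.62 was under that limit of 4.14, so that array's sum holds 1 probe fewer, and on non-MG 1 a signal of 2.87 stood against a limit of 2.67. With all probes summed regardless of the limit, the ratio of miR-886-3p was 0.708.

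**Figure D3:**
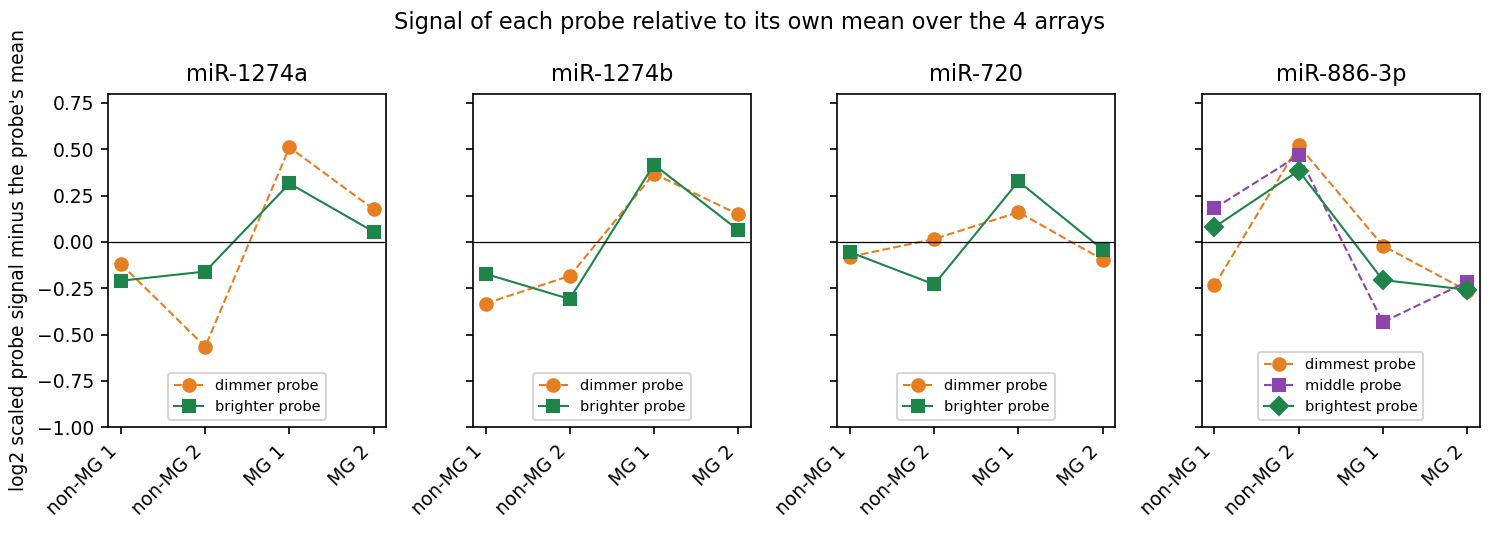
Log2 scaled signal of every probe of the 4 entries minus that probe's own mean over the arrays (vertical axis), by array (horizontal axis); each line is 1 probe. The 2 probes of miR-1274b have similar ratios between the groups, 1.43 and 1.40. Between the non-MG arrays the 2 probes of each tRNA entry shift in opposite directions. The dimmer probe of miR-720 changes 1.05 times between the groups and its brighter probe 1.22 times.

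miR-886-5p, the opposite arm of the same hairpin, has 4 probes on the array and was not detected on any array. Its probe signals lay between -2.59 and -1.02 after background subtraction, and of 64 spots 0 stood well above background. Of the hairpin, signal was thus seen from the probes for the 3′ arm and not from those for the 5′ arm, and no change can be given for the latter.

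The lysine tRNA entries also shared their course over the single arrays. With each log2 signal centred on its own mean over the 4 arrays, miR-1274a and miR-1274b differed by a root mean square of 0.0291, against a median of 0.202 over all 1596 pairs of the 57 entries. Only 9 pairs lay closer. Both entries come from the same amino acid's tRNAs, and how far a probe of one also binds the other RNA was not tested. miR-720 lay at 0.104 from miR-1274a and at 0.130 from miR-1274b. These distances are over 4 arrays and include the contrast between the groups that was in view when the entries were chosen.

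The nearest miRNAs that are not among the 4 were miR-24-3p for miR-1274a, at 0.117, let-7i-5p for miR-1274b and miR-100-5p for miR-720, both at 0.129. Their signals were 1.26, 1.33 and 1.07 times those of non-MG cells in MG cells. miR-24-3p has 2 gene copies in the RefSeq table, and the cluster with miR-23b and miR-27b that the study was about holds a copy, and let-7i-5p belongs to a family known for repressing growth genes. For miR-886-3p the nearest were miR-17-5p at 0.0582, miR-92a-3p at 0.0598 and miR-31-5p at 0.0958, with ratios of 0.748, 0.713 and 0.750. miR-17-5p comes from a primary transcript known for its role in growth, which also holds 1 of the 2 gene copies of miR-92a-3p, and the array signal does not tell these copies apart. Like miR-886-3p, these 3 were highest on non-MG 2, where miR-17-5p was at 285, against 229 on non-MG 1, 196 on MG 1 and 187 on MG 2. All of these neighbours were picked for nearness over the same 4 arrays, so like courses and ratios follow from the choice. Being highest on non-MG 2 was also not particular to them, since miR-1308, miR-1246 and miR-20b-5p were highest there too.

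Other entries read as pieces of tRNAs, vault RNA, rRNA, snoRNAs or snRNAs were listed by name for comparison. The array holds 12 of them, of which 6 were detected, each on all arrays, and 4 passed the signal minimum. Their median ratio was 0.864, beside 0.945 over the 57 entries. Without overlap of the groups, 0 of the 4 were higher in MG cells and 2 lower, beside 21.1% and 40.4% of the 57. With 4 entries, these counts cannot be told from those shares. The direction of the 2 lower entries, miR-1308 and miR-1246, held under each scaling tried. A difference between this list and the withdrawn entries was not tested.

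miR-1308, also read as a tRNA piece, was at 173 and 197 in the non-MG replicates, against 157 and 149 in the MG ones, a ratio of 0.829 without overlap. miR-1260a, the entry ending in CCA shown above, was at 117 and 109 in non-MG replicates, and at 126 on MG 1 but 80.1 on MG 2. Its groups overlapped, and its ratio of 0.888 lay within a spread of 1.57 times between the MG arrays. miR-1246, assigned to a spliceosomal snRNA, was lower without overlap, at 211 and 221 on the MG arrays against 250 and 265, a ratio of 0.841. miR-923, read as a piece of ribosomal RNA, was nearly level with a ratio of 1.00 and values of 2986 to 3265.

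Of the other 16 human names with the version suffix that marks an old registry entry, 5 were detected and 2 passed the minimum, miR-1308 and miR-923. Without overlap of the groups, 0 of these 2 were higher in MG cells and 1, miR-1308, was lower, beside 21.1% and 40.4% of the 57 human entries. With 2 entries, these counts cannot be told from those shares. The other 3 detected were miR-1280, miR-1826 and miR-378, all under the signal minimum. miR-1280 had a ratio of 1.03 with overlap of the groups. miR-1826 and miR-378 were lower in MG cells without overlap, with ratios of 0.734 and 0.645, so miR-886-3p was not the only old entry that was lower.

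The difference between the MG arrays was looked at over all tRNA entries. MG 1 stood above MG 2 for each of the 6 tRNA entries detected on all arrays. The log2 differences were 0.28 for miR-1274a, 0.30 for miR-1274b and 0.35 for miR-720. For the others they were 0.08 for miR-1308, 0.57 for miR-1280, which was under the signal minimum, and 0.65 for miR-1260a, the highest of the 57 entries. Over those 57, MG 1 was above MG 2 for 37, with a median of 0.07. In the order of this difference miR-720 stood at place 8, miR-1274b at place 12 and miR-1274a at place 13 from the highest. Larger differences were thus also seen for entries that are not read as tRNA pieces. For miR-886-3p the MG arrays differed by 0.07, whereas non-MG 1 was 0.32 below non-MG 2. The log2 changes between groups of miR-1274a and miR-1274b, 0.44 and 0.49, were above the difference of their MG arrays, and that of miR-720, 0.24, was below it.

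**Figure D4:**
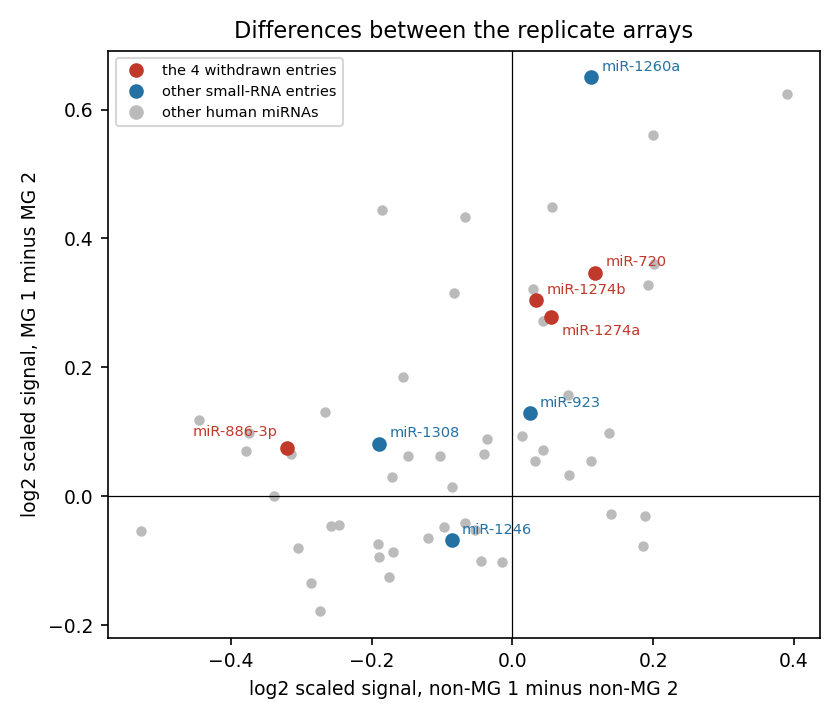
Log2 difference of scaled signal between the MG arrays (vertical axis) and between the non-MG arrays (horizontal axis) for the 57 human entries, with the 4 withdrawn entries in red and the other small-RNA entries in blue. miR-1260a (0.65), miR-720 (0.35), miR-1274b (0.30) and miR-1274a (0.28) lie above 0 on the vertical axis, and miR-886-3p lies to the left.

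The column of the scanner files that holds a total per entry departed from the probes for miR-886-3p. On MG 2 this total was 1584, which is 31.7 times the sum of 49.9 over its probes above the limit, and the excess equalled the total of miR-720 on the same array, 1534. On the other 3 arrays, and for miR-1274a, miR-1274b and miR-720 on all arrays, total and sum were equal. miR-886-3p itself was found in the excess of another entry: the total of miR-9-3p exceeded its own sum by the total of miR-886-3p on non-MG 1, 71.4, and on MG 1, 54.4. Over the 4 arrays the total lay above the sum in 126 of 510 detected values. In 124 of these the excess equalled, within 0.01%, the total of the detected entry that comes before it in name order. All 126 were among the 164 values with a probe under its limit, against 0 of the 346 with every probe above it. For all 142 detected entries, the sums of probes used here equal a row of the values the authors deposited. The tolerance was 0.05% of the entry's highest array. Rows were paired by their values and not by name, and 106 of the 142 carried another name there.

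**Figure D5:**
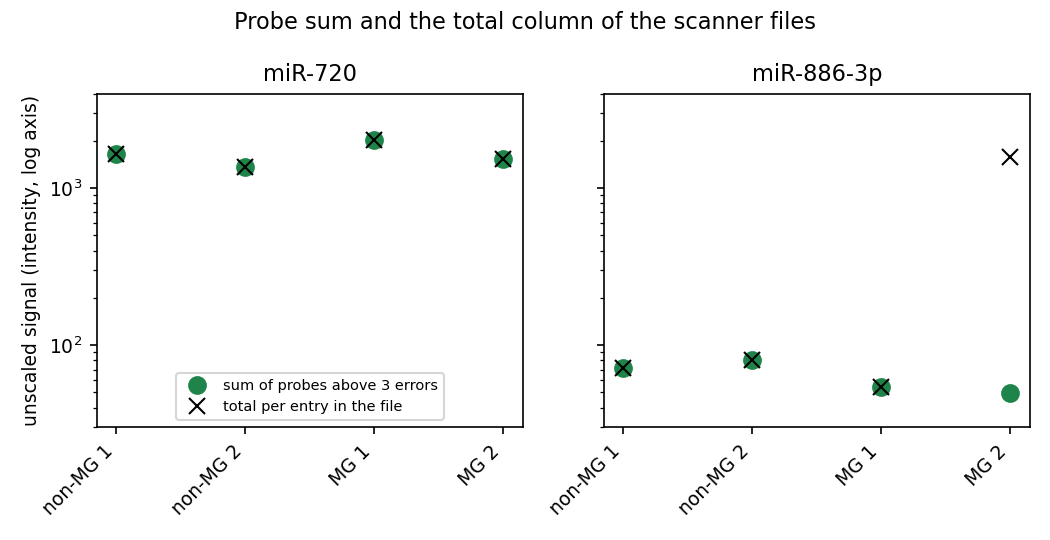
Unscaled signal (intensity, log axis) of miR-720 and miR-886-3p on the 4 arrays, as the sum of probes above 3 errors (circles) and as the total per entry in the scanner files (crosses). The marks coincide except for miR-886-3p on MG 2, with a sum of 49.9 and a total of 1584.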

How the data were processed

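Total RNA of 2 MG and 2 non-MG samples was hybridized, with Cy3 as the one dye, to Agilent arrays for human miRNAs. What the authors deposited was the output of Feature Extraction 10.7.1.1: background-subtracted intensity values per spot and probe on a grid annotated with hg19, not normalized between arrays, and a table of intensity values per entry. The labels give a labelling protocol for complementary RNA of gene expression arrays, and its effect on tRNA pieces was not tested. GeneSpring is the tool the study's methods name, with no test for the arrays.

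The signal of an entry was the sum of its probe signals above 3 times their error, control spots left out. Signals were scaled to a common 75th percentile of the 116 entries detected on all arrays (142 to 158 before scaling), floored at 1 and turned into log2 values of the deposited intensities. The 57 human entries that reached 50 before scaling on 1 or more arrays were fitted with limma 3.58.1 in R 4.3.3 (two-sided, lmFit followed by eBayes, p-values adjusted by Benjamini-Hochberg), with the code tested on simulated data. A ratio is that of geometric means. Python 3.11.15 and pandas 2.3.3 were used otherwise.

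The 4 entries and the lists were chosen with earlier results of these data known. Named are the 4 entries, other small-RNA or version-suffixed entries past the minimum, and the 3 nearest entries of each by root mean square difference of centred log2 signals. The 4 entries past 1.5-fold, miR-1280, miR-1826, miR-378 and miR-9-3p were named after their values were seen. Replicate numbers were not taken as pairs, since the labels give no shared source. RefSeq names and sequences are of GRCh38.p14, whose start positions were used only to find the protein-coding genes next to VTRNA2-1. The number of arrays limits the precision.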

Additional observations from a re-analysis of the deposited data

Results flagged for a closer look

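The total per entry in the scanner files, a column that the comparisons do not use, gave miR-886-3p on MG 2 a signal of 1583.91, above the 71.4 and 80.1 of the non-MG arrays in the same column. The sum of its probes on that array was 49.9.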

How the results depend on the processing

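No direction reversed for any of the 4 entries over 12 alternatives, in which the ratio of MG to non-MG cells ranged from 1.18 to 1.48 for miR-1274a, 1.27 to 1.54 for miR-1274b, 1.05 to 1.30 for miR-720 and 0.617 to 0.853 for miR-886-3p. Leaving out 1 array at a time gave 1.23 to 1.46, 1.27 to 1.53, 1.05 to 1.30 and 0.617 to 0.761. Among the 12, the values the authors deposited gave the same ratios, since they equal the probe sums. The sum of all probes gave the same ratios for the 3 tRNA entries, whose probes all passed the limit. A kept direction is no independent support, since the entries were chosen with their changes known. With normexp background correction, whose offset of 50 draws dim signals together, the ratio was 1.18 for miR-1274a and 0.853 for miR-886-3p, and 1 human entry in place of 4 passed 1.5-fold. With no minimum signal 32 passed, with a minimum of 50 on at least 2 arrays 3 of 56 did, and leaving out 1 array gave 3 to 5. The count of the 4 entries past 1.5-fold, 0, became 1 with quantile normalization (miR-1274b, 1.54), and leaving out 1 array gave 0 to 1: miR-886-3p at 0.617 without non-MG 1, and miR-1274b at 1.53 without MG 2.

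The 14 limma calls became 6 with no normalization, 7 with the brightest probe of each entry only (an alternative chosen after seeing the data) and 1 with no minimum signal. Leaving out 1 array gave 3 to 11, with 5 without non-MG 1, 3 without non-MG 2 and 9 without MG 2. Calls higher in MG cells were 6 of 14, against 7 of 11 with median scaling, 6 of 11 with quantile normalization and 3 of 6 with no normalization. The cause of these shifts was not tested. With the replicate number as a block there were 8 calls, and the deviations of same-numbered arrays correlated at 0.481 over 57 entries, but the numbers were not used as pairs. No fit with the slide as block was made because there was 1 slide. Signal over background limits the dimmest probe of miR-886-3p, with 2 of 24 spots well above background, and the precision is limited by 2 arrays per group.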
